A study of Homo sapiens with 12 samples.

Results

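The 42 genes described here act in the unfolded protein response and the integrated stress response. They were taken by gene symbol from a list of 3 branches, with 8 genes in the IRE1-XBP1 branch, 14 in the ATF6 branch and 20 in the PERK-ATF4 branch, and all 42 were found among the 60612 gene rows of the count table. Expression was measured by bulk RNA sequencing in ZR-75-1, an established oestrogen receptor-positive luminal breast cancer cell line. Control cells (sgControl) carried a non-targeting guide RNA and RB1-knockout cells a guide against RB1, which encodes the retinoblastoma protein. Both genotypes were clones obtained by CRISPR editing, and since the number of clones per genotype was not given in the sources used here, genotype and clone cannot be told apart. Each genotype received 500 nM abemaciclib, an inhibitor of the cell cycle kinases CDK4 and CDK6, or DMSO for 5 days, giving 4 groups of 3 biological replicates and 12 libraries.

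The unfolded protein response starts from sensors in the membrane of the endoplasmic reticulum (ER). IRE1 splices XBP1 mRNA into the form that encodes an active transcription factor, ATF6 is cut in the Golgi to release a factor that induces ER chaperones, and PERK phosphorylates the translation factor eIF2α, which lowers protein synthesis while favouring translation of ATF4. Other kinases phosphorylate eIF2α when amino acids or haem are short or when mitochondria are disturbed, so ATF4 targets also report on stresses outside the ER, and this wider pathway is the integrated stress response. XBP1 and the luminal oestrogen receptor programme are closely linked in breast epithelium, where XBP1 is itself an oestrogen-responsive gene. Gene-level counts do not separate spliced from unspliced XBP1, and ATF6 cleavage, eIF2α phosphorylation and ATF4 protein were not measured.

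Library totals ranged from 39907318 to 81636393 counts. RB1 itself had 2090 to 7543 counts in the 6 sgControl libraries and 29 to 63 in the 6 knockout libraries, so the labels and the targeted gene matched in all 12. All 7 luminal epithelial markers were present in every library, whereas KRT5, KRT14, VIM, PTPRC and PECAM1 did not exceed 6 counts in any library and COL1A1 was detected throughout. Some of these markers moved with the groups: the mean normalized count of ESR1, the oestrogen receptor gene, was 12053 ± 1999 (SD, n = 3) with DMSO and 18134 ± 623 with abemaciclib in sgControl cells and 8359 ± 368 and 6386 ± 387 in knockout cells, KRT18 went the other way (122264 to 70356, and 146178 to 186979), and COL1A1 was higher with the drug in both (2245 to 2903, and 1940.1 to 2611). The part of these shifts in the results below was not tested. Replicate 1 of the sgControl DMSO group stood apart from its group. Among the members it had lower values of some, such as ERN1, EDEM1 and SEL1L, and higher values of others, such as XBP1, SEC61B, SDF2L1 and MANF. The share of counts from mitochondrial genes was 3.49% ± 0.60 (SD, n = 3) and 7.73% ± 0.70 in sgControl cells with DMSO and abemaciclib, and 3.98% ± 0.18 and 6.13% ± 1.09 in knockout cells; its part in the results below was not tested. In bulk libraries a change in the mix of cell states and a change in RNA per cell cannot be told apart.

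The promoters of some members carry the DNA elements through which the branches are known to act, and they are shown because they are where the factors of these branches are known to bind. Windows from 250 bases before to 50 bases after each annotated start (RefSeq, GRCh38.p14) were available for 36 of the 42 members and were searched on both strands. The ER stress response element, which is bound by ATF6 and XBP1 together with NF-Y, was searched as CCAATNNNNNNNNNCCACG. It was present in 27 of 35116 windows (0.0769%), or in 25 of 27305 genes (0.0916%). Of these genes, 6 were among the 13 ATF6-branch members with a window (HSPA5, HSP90B1, CALR, CANX, PDIA6 and CRELD2), 1 was among 7 IRE1-XBP1 members (XBP1) and none was among 16 PERK-ATF4 members. The matches in CANX and PDIA6 are not printed. In CALR, CRELD2 and the second HSP90B1 match the element lay on the opposite strand and reads as its reverse complement. Written 5′ to 3′ along each gene with the element in capitals, the matches in the other 5 members were as follows.
HSPA5, chr9:125241386-125241414, minus strand: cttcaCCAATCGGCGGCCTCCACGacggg
XBP1, chr22:28800598-28800626, minus strand: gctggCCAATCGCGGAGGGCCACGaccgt
HSP90B1, first match, chr12:103930211-103930239, plus strand: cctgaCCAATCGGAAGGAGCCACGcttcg
HSP90B1, second match, chr12:103930316-103930344, plus strand: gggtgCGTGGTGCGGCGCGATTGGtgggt
CALR, chr19:12938379-12938407, plus strand: ccacgCGTGGTCGACCATCATTGGtcggt
CRELD2, chr22:49918549-49918577, plus strand: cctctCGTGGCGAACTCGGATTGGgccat

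The core of the unfolded protein response element, searched as TGACGTGG, was found in 1 member, HYOU1, and in 0.729% of all windows. The C/EBP-ATF response element bound by ATF4 and CHOP, searched as TTGCATCA, was found in CHAC1 of the PERK-ATF4 branch, in HERPUD1 of the ATF6 branch and in 0.866% of all windows. These 3 matches, again with the element in capitals, were the following.
HYOU1, chr11:119057381-119057398, minus strand: ccccgTGACGTGGtccaa
CHAC1, chr15:40953257-40953274, plus strand: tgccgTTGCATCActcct
HERPUD1, chr16:56931961-56931978, plus strand: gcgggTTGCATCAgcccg
A match describes the letters in the window, and the absence of one says only that these letters were not in it.

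The first comparison asked what 5 days of abemaciclib did to the members in cells with intact RB1. In sgControl cells 23 of 42 members (54.8%) were higher and 11 (26.2%) lower at an adjusted p under 0.05 in DESeq2, the threshold for every call below, where 24.1% of all tested genes were higher and 23.9% lower. The median log2 fold change was 0.24 over the members and 0.01 over all tested genes. The branches went separate ways, as the heatmap of the members by library and the mean level of each branch in each library show. In the IRE1-XBP1 branch 6 of 8 members were higher and 1 lower (median 0.60), in the ATF6 branch 10 of 14 were higher and 1 lower (median 0.25), and in the PERK-ATF4 branch 7 of 20 were higher and 9 lower (median -0.03). Scaling by total counts in place of median-of-ratios factors moved the median gene by -0.13, with 18 members higher and 14 lower; over all genes the calls moved from 5657 higher and 5615 lower to 4529 and 6774.

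**Figure D1:**
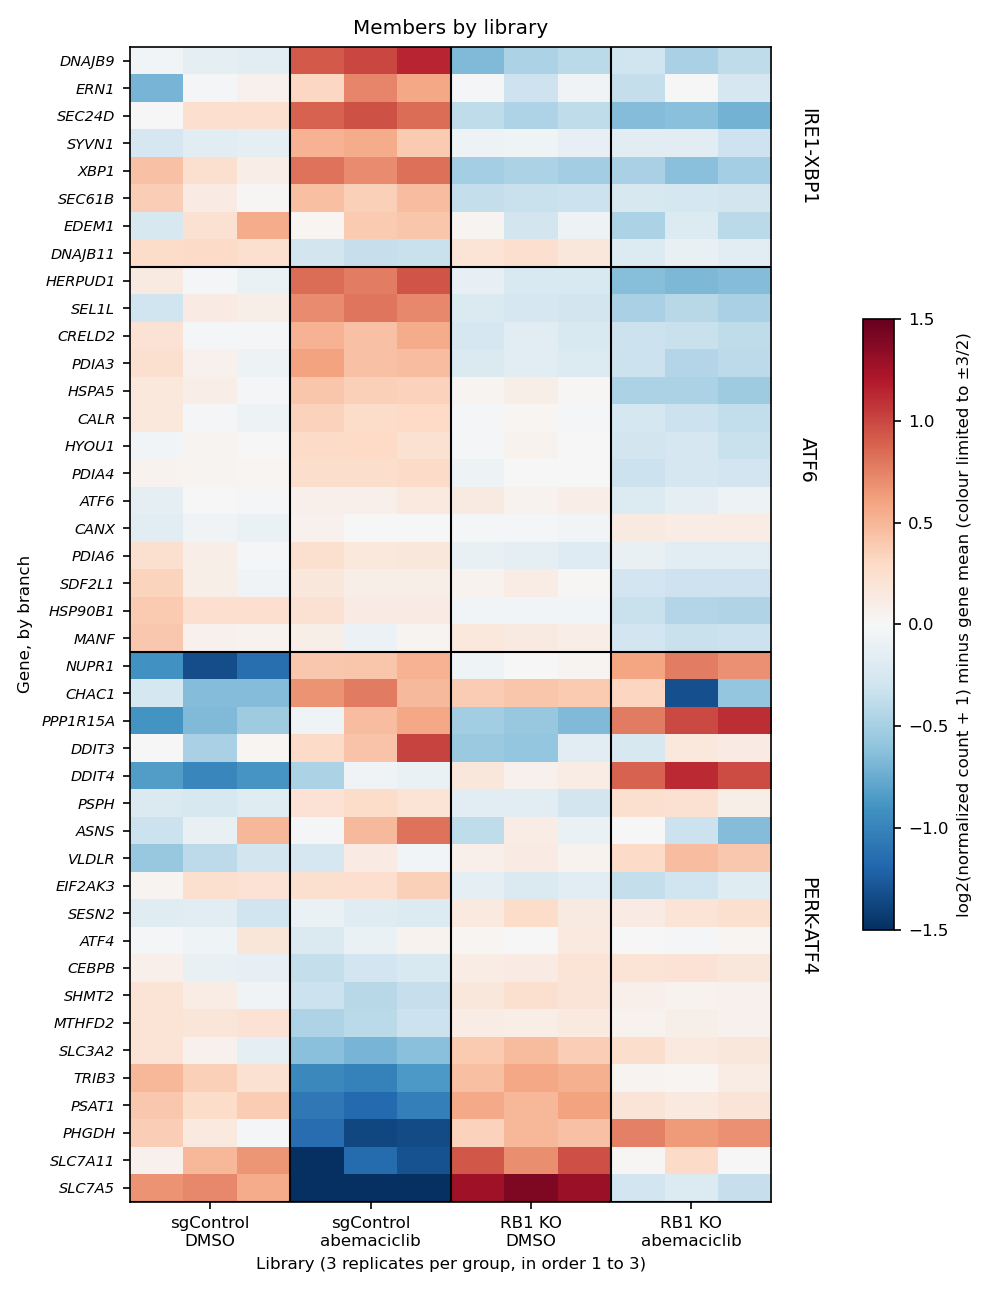
Heatmap of the 42 members (rows, grouped by branch and ordered by their response in sgControl cells) in the 12 libraries (columns, 3 per group); colour gives log2 of the normalized count plus 1, minus the mean of the gene. The upper rows are red in sgControl abemaciclib libraries, where 6 of 8 IRE1-XBP1 and 10 of 14 ATF6 members were higher than in DMSO, and the lowest rows, such as SLC7A5 and PHGDH, are deep blue there.

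The sensor and factor of the IRE1-XBP1 branch were both higher in abemaciclib-treated sgControl cells. XBP1 (chr22:28794555-28800597, minus strand) had normalized counts of 188898, 163829.8 and 149411 in the DMSO replicates and 244339.7, 227364 and 245714 with abemaciclib. All treated libraries lay above all DMSO libraries, a 1.43-fold rise (log2 0.51 ± 0.08 SE, adjusted p = 1.96e-10). ERN1, which encodes IRE1, stood at 449.6, 720.1 and 757 without and 904, 1212 and 1083 with the drug. The groups did not overlap, although DMSO replicate 1 was well below the other two, and the rise was 1.66-fold (log2 0.73 ± 0.17 SE, adjusted p = 6.3e-05).

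DNAJB9, a J-domain co-chaperone of the ER chaperone BiP and a well-known XBP1 target, moved most within this branch. Its values were 691, 637 and 630.0 with DMSO and 1341, 1419 and 1560.1 with abemaciclib, so all treated replicates lay far above all controls (2.21-fold, log2 1.14 ± 0.09 SE, adjusted p = 1.53e-36). SEC24D, a cargo adaptor of the COPII coat that carries proteins out of the ER, went from 3813, 4536 and 4529 to 7035, 7332 and 6791 (1.64-fold, adjusted p = 3.61e-23), again without overlap. SYVN1, the ubiquitin ligase HRD1 of ER-associated degradation, rose 1.6-fold and SEC61B, a subunit of the translocon, 1.19-fold, the latter with overlapping replicates and a call lost under total-count scaling (log2 0.12, adjusted p = 0.0765) and with only the compared samples (adjusted p = 0.0616). SYVN1 overlaps the ribosomal protein gene FAU on the same strand, so its counts carry that uncertainty.

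DNAJB11, another BiP co-chaperone, was the exception in the branch. It fell from 3269, 3290.1 and 3199 to 2238, 2132 and 2142, with all treated libraries below all controls (log2 -0.58 ± 0.05 SE, adjusted p = 1.34e-30). EDEM1, a lectin-like factor of ER-associated degradation, had a log2 change of 0.07 with a 95% interval, as for all intervals below, of -0.24 to 0.39, and its DMSO replicates spread from 2015 to 3493.

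Among ATF6-branch members the factors of ER-associated degradation rose most in sgControl cells. HERPUD1, which helps assemble the degradation complex, went from 1912, 1714 and 1626 to 3114, 2972 and 3359, a 1.8-fold change (log2 0.85 ± 0.07 SE, adjusted p = 6.49e-30). SEL1L, the partner of HRD1, went from 5978, 8001 and 7799 to 12008, 12784 and 12114, or 1.69-fold (log2 0.76 ± 0.09 SE, adjusted p = 2.58e-16). Neither gene had overlapping groups, and DMSO replicate 1 was the lowest library for SEL1L.

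The chaperones of the branch moved less. HSPA5 (chr9:125234853-125241382, minus strand), which encodes BiP, the chaperone that holds the sensors inactive, had 40377, 38962 and 35419 with DMSO and 48297, 46300.1 and 46106 with abemaciclib. The groups were separate, but the rise was only 1.23-fold (log2 0.29 ± 0.05 SE, adjusted p = 2.99e-07). ATF6 itself was at 5316, 5817 and 5757 and 6133, 6139.8 and 6422, a difference of 0.15 (adjusted p = 0.016) on the log2 scale whose call rested on the scaling. It was 0.01 (adjusted p = 0.924) with total-count factors and 0.11 (adjusted p = 0.0993) with TMM factors, and the call was also lost with only the compared samples (adjusted p = 0.174) and without DMSO replicate 1 or abemaciclib replicate 3 (adjusted p from 0.061 to 0.0842). CALR, a lectin chaperone, rose 1.22-fold, HYOU1, the nucleotide exchange factor of BiP, 1.21-fold, CRELD2 1.36-fold and the disulphide isomerases PDIA3 and PDIA4 1.34-fold and 1.17-fold. Under total-count scaling the PDIA4 change was 0.10 on the log2 scale and no longer called (adjusted p = 0.127).

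Some ATF6-branch members did not share the rise. HSP90B1, the ER form of HSP90, went from 39422, 35812 and 35824 to 35163, 32714 and 32752, below the controls in every treated library but by a small margin (log2 -0.14 ± 0.06 SE, adjusted p = 0.0252); that call was lost without DMSO replicate 1, abemaciclib replicate 2 or abemaciclib replicate 3 (adjusted p from 0.0813 to 0.122). PDIA6, SDF2L1 and MANF were not called, with log2 intervals of -0.05 to 0.21, -0.18 to 0.14 and -0.34 to 0.00; with total-count factors SDF2L1 (-0.14) and MANF (-0.30) were called lower, PDIA6 was called without DMSO replicate 1 (0.15, adjusted p = 0.00501) and MANF without DMSO replicate 2 or 3 (-0.23). CANX, the membrane-bound lectin chaperone, was at 69742, 75098 and 72754 and 81394, 78027 and 77459, 1.09-fold higher (adjusted p = 0.00576). Under total-count scaling no change was left (log2 -0.01, adjusted p = 0.9). The CANX call was also lost with TMM factors (adjusted p = 0.0869) and with edgeR (adjusted p = 0.0929). It was lost as well with only the compared samples (adjusted p = 0.241) and without abemaciclib replicate 1 (adjusted p = 0.0529). The 7 members with an ER stress response element divided likewise, with 5 higher (XBP1, HSPA5, CALR, CANX, CRELD2), HSP90B1 lower and PDIA6 not called. Over all tested genes 24.1% were higher and 23.9% lower.

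In the PERK-ATF4 branch all 3 amino acid transporter genes fell in sgControl cells, where 23.9% of all tested genes were lower. SLC7A5, the large neutral amino acid transporter LAT1, had 12366, 12830.0 and 11408 with DMSO and 2557, 2377 and 2273 with abemaciclib. Every treated library lay far below every control, a 5.08-fold fall (log2 -2.35 ± 0.07 SE, adjusted p = 2.94e-259). SLC7A11, the cystine and glutamate exchanger, went from 172, 234 and 261 to 50.7, 73.5 and 66.1, or 3.5-fold lower (log2 -1.81 ± 0.19 SE, adjusted p = 6.25e-20), and SLC3A2, the heavy chain that both transporters need, was 1.63-fold lower.

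Enzymes of serine synthesis and mitochondrial one-carbon metabolism were mostly lower as well, 4 of 5 being called lower against 23.9% of all tested genes. PHGDH (chr1:119648411-119744218, plus strand), which catalyses the first step from glycolysis to serine, had 8224, 7024 and 6247 without and 2897, 2472 and 2514 with the drug (log2 -1.45 ± 0.09 SE, adjusted p = 2.07e-51). PSAT1, the next enzyme, had 1245, 1146 and 1226 and 448, 419 and 462 (log2 -1.45 ± 0.07 SE, adjusted p = 1.06e-85). For both genes every treated library lay far below the lowest control. MTHFD2 and SHMT2 of the mitochondrial folate cycle were lower by log2 changes of -0.60 and -0.45, whereas PSPH, the last enzyme of serine synthesis, was 1.36-fold higher.

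Of the 7 effectors of the stress response, 5 were higher and 1, TRIB3, was lower in sgControl cells. The shares over all tested genes were 24.1% and 23.9%. NUPR1, a stress-induced chromatin protein, rose from 426, 316 and 365 to 1062, 1068 and 1150.5, the largest called rise among the members (2.96-fold, log2 1.57 ± 0.10 SE, adjusted p = 5.83e-57). PPP1R15A, the GADD34 subunit that directs dephosphorylation of eIF2α, went from 402, 474 and 518 to 718, 1036 and 1122 (2.06-fold, adjusted p = 1.03e-11). DDIT4, the mTORC1 inhibitor REDD1, had 889, 809 and 858 and 1146, 1533 and 1484 (1.63-fold, adjusted p = 4.21e-11). The groups were apart for all of these genes. CHAC1, which degrades glutathione, rose 2.26-fold on low normalized counts of 67.0, 51.1 and 51.0 against 129, 139 and 114, VLDLR rose 1.28-fold (adjusted p = 0.0667 without abemaciclib replicate 2 and 0.175 with total-count factors), and the pseudokinase gene TRIB3 was 2.49-fold lower.

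The regulators of the branch showed no common shift. EIF2AK3, which encodes PERK, was at 1341, 1538 and 1521 and 1548, 1557 and 1675 (log2 0.12 ± 0.08 SE, adjusted p = 0.198), so the groups did not overlap but no change was called. ATF4 mRNA was at 5977, 5828 and 6879.8 and 5247, 5678 and 6288, with overlapping groups and a log2 interval of -0.28 to 0.04, and was called lower with total-count factors (-0.25, adjusted p = 0.0336). DDIT3, which encodes CHOP, was higher at 261, 287 and 431 than at 212, 152 and 219 in the controls (1.68-fold, adjusted p = 0.000803); it overlaps MARS1 on the opposite strand. CEBPB fell by a log2 change of -0.24, SESN2, a sensor of amino acid supply, was not called (interval -0.07 to 0.18), and ASNS, asparagine synthetase, was too low to resolve, at 24.2, 28.2 and 43.5 and 30.2, 43.4 and 54.6 (interval -0.25 to 1.07).

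The second comparison gave the same treatment in RB1-knockout cells. Here 7 of 42 members (16.7%) were higher and 18 (42.9%) lower, against 15% and 15.1% of all tested genes, and the member median was -0.16 where that of all genes was 0.02. In the IRE1-XBP1 branch no member was higher and 2 were lower (median -0.10), in the ATF6 branch 1 was higher and 10 lower (median -0.27), and in the PERK-ATF4 branch 6 were higher and 6 lower (median -0.06). Leaving out single libraries gave 5 to 8 members higher and 15 to 21 lower. Over both ER branches, 16 of 22 members were higher and 2 lower in sgControl cells, where 24.1% and 23.9% of all tested genes were. In the knockout 1 of 22 was higher, 12 were lower and 9 were not called. The plot of both responses side by side shows most ATF6-branch members on opposite sides of 0.

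**Figure D2:**
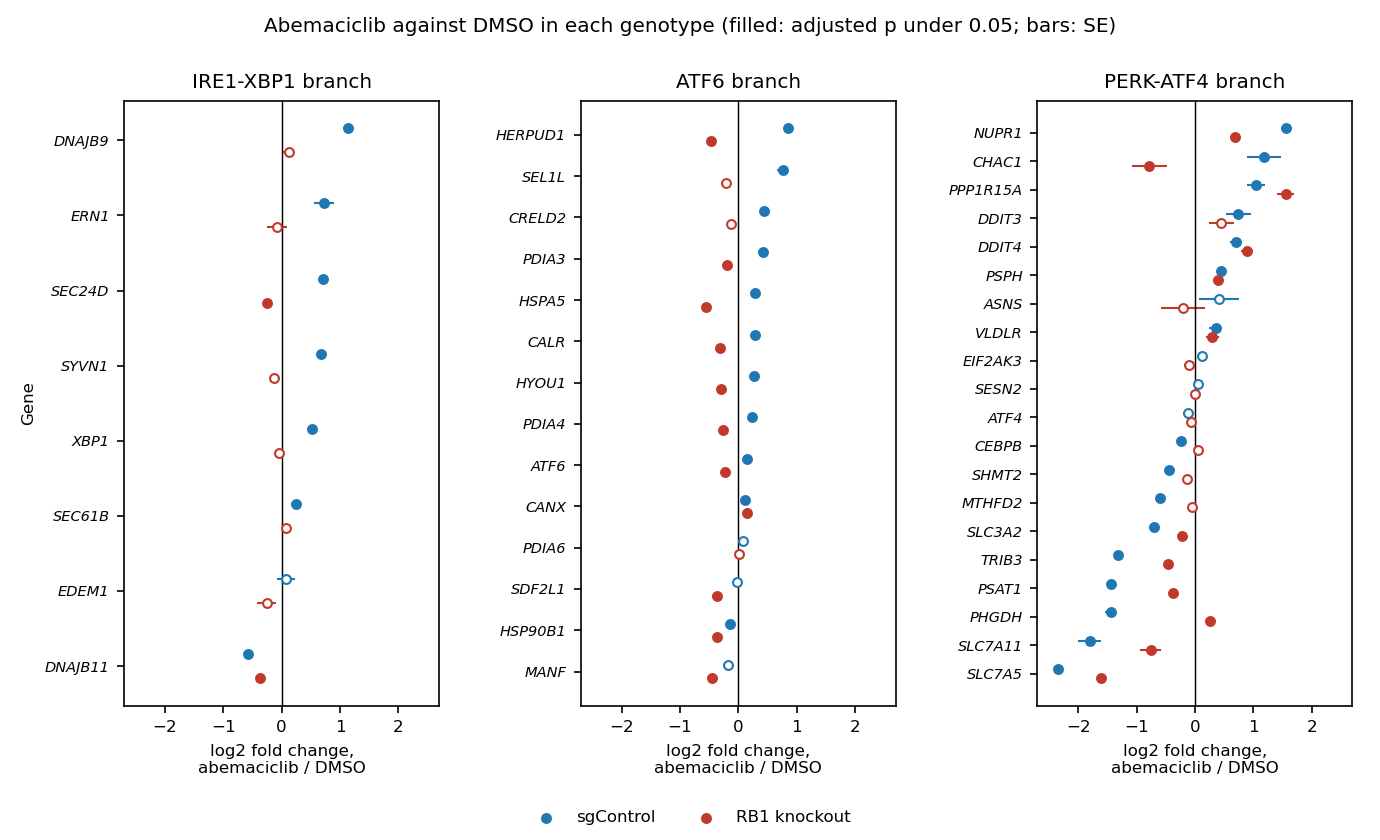
Log2 fold change of abemaciclib over DMSO (horizontal axis, with SE bars) for each member, in sgControl (blue) and RB1-knockout cells (red), 3 libraries per group; filled points passed an adjusted p of 0.05. In the ATF6 panel the blue points lie mostly to the right and the red points to the left, as for HERPUD1 at 0.85 and -0.46.

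The IRE1-XBP1 sensor and factor did not differ detectably with treatment in knockout cells. XBP1 was at 97967, 100165 and 96863 with DMSO and 99493, 90110.4 and 97491 with abemaciclib, with overlapping groups and a log2 interval of -0.19 to 0.11. ERN1 was at 720.0, 586 and 702 and 565, 732 and 609 (interval -0.41 to 0.27), and DNAJB9 at 448, 509 and 535 and 575, 506 and 544 (interval -0.07 to 0.31). For each of the 3 genes the interval lay below the rise estimated in sgControl cells. The branch members that changed were SEC24D, which fell from 2910.0, 2759 and 2917 to 2426, 2451 and 2329 (log2 -0.25 ± 0.07 SE, adjusted p = 0.00312), and DNAJB11, which fell from 3109.5, 3213 and 3044 to 2341, 2498 and 2426 (log2 -0.37 ± 0.05 SE, adjusted p = 1.73e-11).

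HSPA5 fell most in the ATF6 branch of knockout cells. It went from 37359, 38651 and 36787 to 26151, 26089 and 25010.1, so every treated library was below every control (log2 -0.55 ± 0.05 SE, adjusted p = 2.03e-21, 1.46-fold lower). HERPUD1 fell from 1599.8, 1496 and 1493 to 1118, 1095 and 1117 (log2 -0.46 ± 0.08 SE, adjusted p = 5.06e-08). HSP90B1, at 29303, 29198 and 29278 and 23981, 22146 and 22064, changed by -0.36, and MANF, a factor with roles inside and outside the ER, by -0.44. ATF6 mRNA itself fell, from 6371, 6036 and 6233 to 5068, 5277 and 5508 (log2 -0.23 ± 0.05 SE, adjusted p = 0.000171).

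CALR, HYOU1, PDIA4 and SDF2L1 fell by 0.31, 0.29, 0.26 and 0.37 on the log2 scale, and PDIA3 by 0.19 with a call that was lost on leaving out any of 8 of the 12 libraries (adjusted p up to 0.177). SEL1L, at 6312, 6172 and 6049 with DMSO and 5231, 5528 and 5251 with abemaciclib, had separate groups and a log2 change of -0.21 (adjusted p = 0.0643); it was called without any one of the sgControl DMSO replicates, which enter the shared estimate of spread (adjusted p from 9.43e-06 to 0.0469). CANX was the member of the branch that rose, from 76822, 76399.7 and 75619 to 85459, 84135 and 84271 (log2 0.15 ± 0.04 SE, adjusted p = 0.00124). With edgeR the CANX call was lost (0.14, adjusted p = 0.076). Of the 7 members with an ER stress response element, 1 was higher in knockout cells, 3 were lower and 3 were not called. The shares over all tested genes were 15% higher and 15.1% lower.

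Of the 7 stress effectors in the PERK-ATF4 branch, 4 rose and 2 fell in knockout cells, against 15% and 15.1% of all tested genes. PPP1R15A went from 525, 507 and 474 to 1296, 1495 and 1627, or 2.94-fold (log2 1.55 ± 0.15 SE, adjusted p = 2.01e-23), DDIT4 from 1784, 1663 and 1713 to 2949, 3466 and 3127 (log2 0.89 ± 0.10 SE, adjusted p = 9.57e-17), and NUPR1 from 765, 796 and 822 to 1204, 1356 and 1290.1 (log2 0.69 ± 0.09 SE, adjusted p = 9.44e-12). Groups were separate for all 3 genes. CHAC1 had 105, 108 and 106 with DMSO and 100.8, 31.6 and 53.5 with abemaciclib, a wide spread in the treated group; its log2 change of -0.79 (adjusted p = 0.0306) became -0.47 (adjusted p = 0.194) without replicate 2 of that group.

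SLC7A5 fell in the knockout as well, from 18816, 20578 and 19082 to 6348, 6730.1 and 6127, a 3.05-fold change (log2 -1.61 ± 0.07 SE, adjusted p = 6.4e-125), and SLC7A11 from 316, 267 and 322 to 166, 201 and 165 (log2 -0.76 ± 0.18 SE, adjusted p = 0.000147). PSAT1 fell less than in sgControl cells, from 1399, 1335 and 1437 to 1080.4, 1043 and 1075 (log2 -0.38 ± 0.07 SE, adjusted p = 3.33e-07). PHGDH instead rose slightly, from 8126, 8984 and 8614 to 10747, 9922 and 10278 (log2 0.27 ± 0.09 SE, adjusted p = 0.0185), and that call was lost without knockout DMSO replicate 1 or 3 or knockout abemaciclib replicate 1 or 3 (adjusted p up to 0.107). EIF2AK3, at 1187, 1120.5 and 1168 and 1015, 1064 and 1153, ATF4, at 6231, 6089.5 and 6729.9 and 6041, 6014 and 6211, and DDIT3, at 145, 142 and 189.8 and 181, 239 and 233, all had overlapping groups and were not called, with log2 intervals of -0.26 to 0.05, -0.22 to 0.10 and 0.03 to 0.87. PSPH (0.39, adjusted p = 4.83e-06) and VLDLR (0.30, adjusted p = 0.0312) rose and TRIB3 (-0.46, adjusted p = 1.26e-08) and SLC3A2 (-0.22, adjusted p = 0.0191) fell. The remaining members, SEC61B, SYVN1 and EDEM1 of the IRE1-XBP1 branch, PDIA6 and CRELD2 of the ATF6 branch and SHMT2, MTHFD2, CEBPB, ASNS and SESN2 of the PERK-ATF4 branch, were not called, with log2 changes from -0.26 to 0.08.

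**Figure D3:**
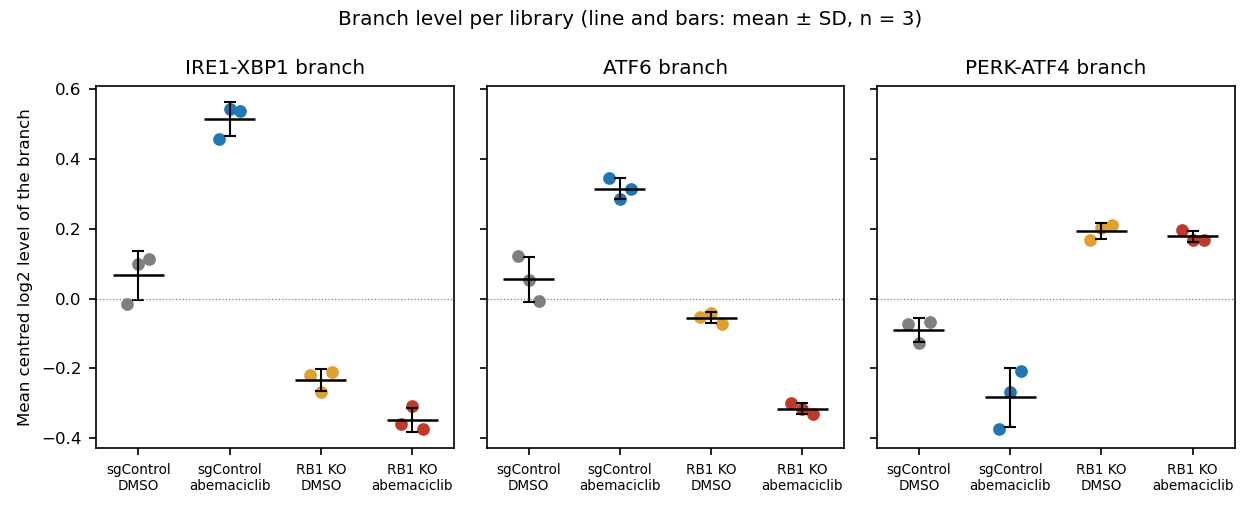
Mean centred log2 level of each branch (vertical axis; per library, the mean over the members of log2 of the normalized count plus 1, each gene centred on its own mean) in the 4 groups; points are libraries, lines and bars the mean ± SD (n = 3). The IRE1-XBP1 mean was 0.07 and 0.51 in sgControl cells with DMSO and abemaciclib and -0.23 and -0.35 in knockout cells, and the PERK-ATF4 mean was -0.09, -0.28, 0.19 and 0.18 in the same order.

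The interaction term of the same model tested whether the response to abemaciclib differed between the genotypes, with positive values meaning a higher response in the knockout. It was positive for 11 of 42 members (26.2%) and negative for 18 (42.9%), against 21% and 20.2% of all tested genes, and the members' median was -0.25 against 0.03. The ER branches were mostly negative, with 1 positive and 5 negative of 8 in the IRE1-XBP1 branch and 0 and 11 of 14 in the ATF6 branch (medians -0.68 and -0.53). Within the PERK-ATF4 branch 10 of 20 members were positive and 2 negative (median 0.24). Total-count scaling moved the median gene by 0.14, with 11 members then positive and 16 negative, and moved the calls over all genes from 4415 positive and 4250 negative to 5466 and 3099.

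HERPUD1 had the strongest negative term of the ER branches at -1.31 ± 0.11 (SE, adjusted p = 3.95e-33), a rise in one genotype against a fall in the other. DNAJB9 (-1.02 ± 0.13 SE, adjusted p = 1.17e-13), SEC24D (-0.97 ± 0.10 SE, adjusted p = 2.66e-20) and SEL1L (-0.97 ± 0.13 SE, adjusted p = 3.52e-13) followed, and HSPA5 reached -0.84 ± 0.08 (SE, adjusted p = 4.03e-26). XBP1 (-0.55 ± 0.11 SE, adjusted p = 2.68e-06) and ERN1 (-0.80 ± 0.24 SE, adjusted p = 0.00312) were negative, with a rise called in sgControl cells and none called in the knockout. DNAJB11 was positive at 0.22 ± 0.07 (SE, adjusted p = 0.00688), its fall being smaller in the knockout. HSP90B1 was called at -0.22 (adjusted p = 0.0148), and that call was lost on leaving out any of 4 of the 12 libraries (adjusted p up to 0.0616) and under total-count scaling (-0.09, adjusted p = 0.226). The ATF6 term, -0.38 (adjusted p = 4.41e-06), was likewise not called under total-count scaling (-0.24, adjusted p = 0.0743).

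In the PERK-ATF4 branch PHGDH had the largest positive term, 1.71 ± 0.13 (SE, adjusted p = 2.56e-36). PSAT1 (1.06 ± 0.10 SE, adjusted p = 4.45e-25), SLC7A11 (1.05 ± 0.26 SE, adjusted p = 0.00026), TRIB3 (0.86 ± 0.11 SE, adjusted p = 4.16e-15) and SLC7A5 (0.74 ± 0.10 SE, adjusted p = 8.7e-14) were also positive, each falling less in the knockout. NUPR1 was negative (-0.88 ± 0.14 SE, adjusted p = 8.81e-10), since it rose less there. PPP1R15A was positive at 0.51 (adjusted p = 0.0384), a call lost on leaving out any of 7 of the 12 libraries (adjusted p up to 0.116), and for DDIT4 no difference was called (interval -0.10 to 0.47). ATF4, SESN2, PSPH and VLDLR had terms between -0.06 and 0.06 that were not called.

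**Figure D4:**
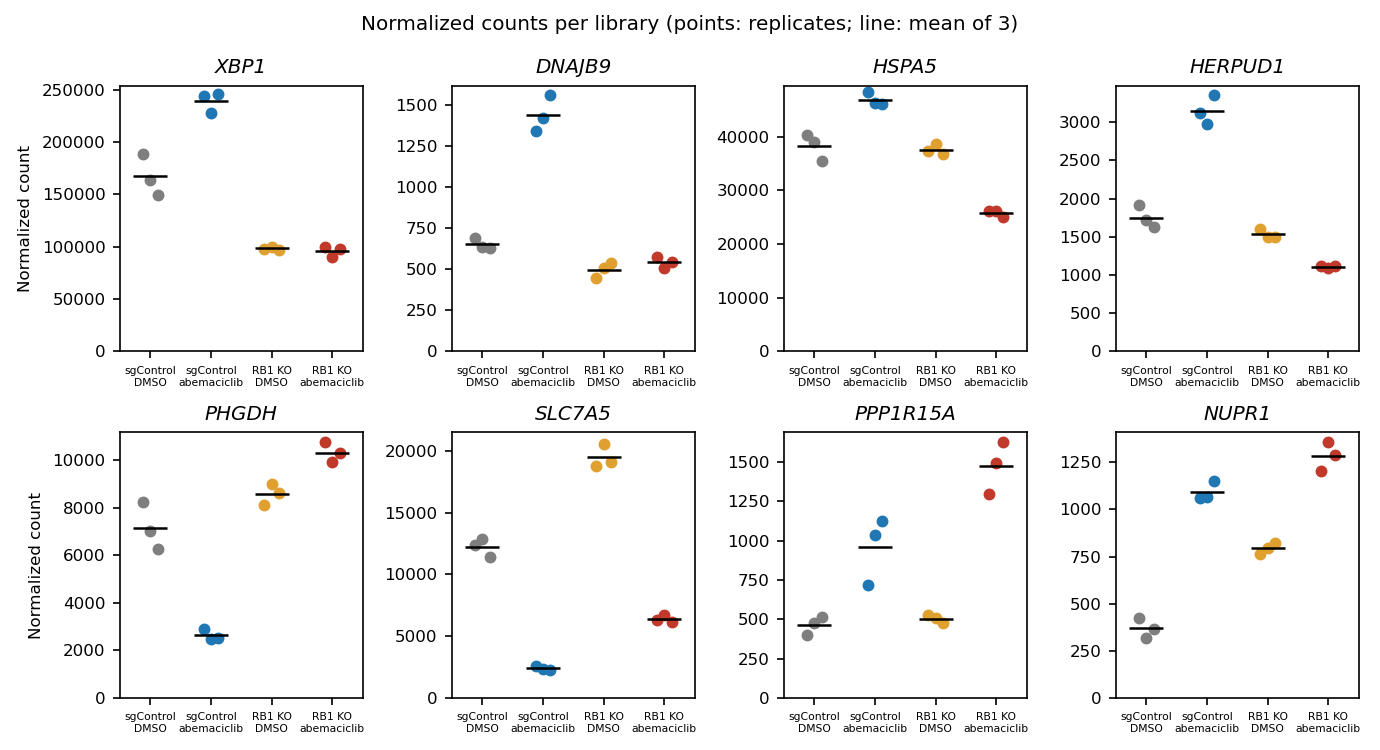
Normalized counts (vertical axis, linear from 0) of 8 members in the 12 libraries; points are replicates and lines the mean of 3. XBP1 and DNAJB9 are highest in the sgControl abemaciclib libraries, HSPA5 and HERPUD1 rise there and fall in the knockout, PHGDH falls in sgControl cells (-1.45 on the log2 scale), SLC7A5 falls and PPP1R15A and NUPR1 rise in both genotypes.

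The genotypes were then compared without drug. In DMSO 12 of 42 members (28.6%) were higher in the knockout and 11 (26.2%) lower, against 16.2% and 15.2% of all tested genes, with a member median of -0.01 beside 0.00 for all genes. All 4 called members of the IRE1-XBP1 branch were lower, the ATF6 branch had 1 higher and 6 lower, and the PERK-ATF4 branch 11 higher and 1 lower, with medians of -0.35, -0.07 and 0.20. The lower members were led by XBP1, at 97967, 100165 and 96863 in the knockout and 188898, 163829.8 and 149411 in sgControl cells (log2 -0.77 ± 0.08 SE, adjusted p = 3.78e-21), and by SEC24D (log2 -0.59 ± 0.07 SE, adjusted p = 1.31e-14). Neither gene had overlapping groups. NUPR1 was 2.15-fold and DDIT4 2.02-fold higher in the knockout (adjusted p = 9.26e-27 and 4.68e-21), CHAC1 1.89-fold and SLC7A5 1.6-fold, and their groups were apart. HSPA5, CALR and HYOU1 were not called, with log2 intervals of -0.13 to 0.08, -0.15 to 0.09 and -0.08 to 0.10. The count of higher members was 7 when only the DMSO libraries were fitted and also without replicate 3 of the knockout DMSO group. The calls of ATF6, HERPUD1, SEL1L, PSAT1, PHGDH, SLC7A11 and CEBPB were each lost on leaving out between 2 and 6 of the 12 libraries singly (adjusted p up to 0.193), and EDEM1 (-0.50), TRIB3 (0.23) and SHMT2 (0.17) gained one without sgControl DMSO replicate 1.

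With abemaciclib in both genotypes the separation was wider. The knockout had 16 members (38.1%) higher and 24 (57.1%) lower than sgControl cells, against 27.5% and 26.4% of all tested genes, with ATF4 and PSPH the 2 members not called, and the member median was -0.38 beside 0.02. Total-count scaling moved the median gene by 0.11 and left 16 higher and 21 lower, while calls over all genes moved from 6117 higher and 5885 lower to 6990 and 4819. Of the 22 ER-branch members 20 were lower and DNAJB11 and CANX higher, while 14 of 20 PERK-ATF4 members were higher and 4 lower (median 0.45). This comparison shares its sgControl libraries with the first one and its knockout libraries with the second. In the model each value is the genotype difference in DMSO plus the interaction term, so it does not give a drug response alone. For XBP1 these parts were -0.77 and -0.55 on the log2 scale, and for HSPA5 they were -0.02 and -0.84.

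SEC24D (log2 -1.55 ± 0.07 SE, adjusted p = 3.33e-102), HERPUD1 (log2 -1.50 ± 0.08 SE, adjusted p = 1.06e-86), DNAJB9 (log2 -1.41 ± 0.09 SE, adjusted p = 5.04e-52) and XBP1 (log2 -1.32 ± 0.08 SE, adjusted p = 3.1e-63) were the lowest in the knockout. PHGDH was highest, 3.93-fold above sgControl cells (log2 1.97 ± 0.09 SE, adjusted p = 5.86e-95), followed by SLC7A11 (log2 1.48 ± 0.20 SE, adjusted p = 3.37e-13) and SLC7A5 (log2 1.41 ± 0.07 SE, adjusted p = 1.55e-93). The 4 lower members of the PERK-ATF4 branch were EIF2AK3 (-0.56, adjusted p = 1.28e-12), DDIT3 (-0.58, adjusted p = 0.0101), CHAC1 (-1.05, adjusted p = 0.000891) and ASNS (-0.81, adjusted p = 0.0445). Same-numbered libraries deviated together weakly in this comparison (r = 0.15, 0.26 and 0.11), which does not establish that they were paired. With a replicate block CANX (0.10, adjusted p = 0.0653) and ASNS (-0.76, adjusted p = 0.0726) were no longer called. Leaving out single libraries also ended the calls of CANX (5 of 12), ASNS (8), NUPR1 (4) and, without sgControl abemaciclib replicate 3 or knockout abemaciclib replicate 1, DDIT3 (adjusted p up to 0.154). With total-count factors ATF6 (-0.12, adjusted p = 0.197), DDIT3 (-0.47, adjusted p = 0.0609) and ASNS (-0.70, adjusted p = 0.103) were not called.

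**Figure D5:**
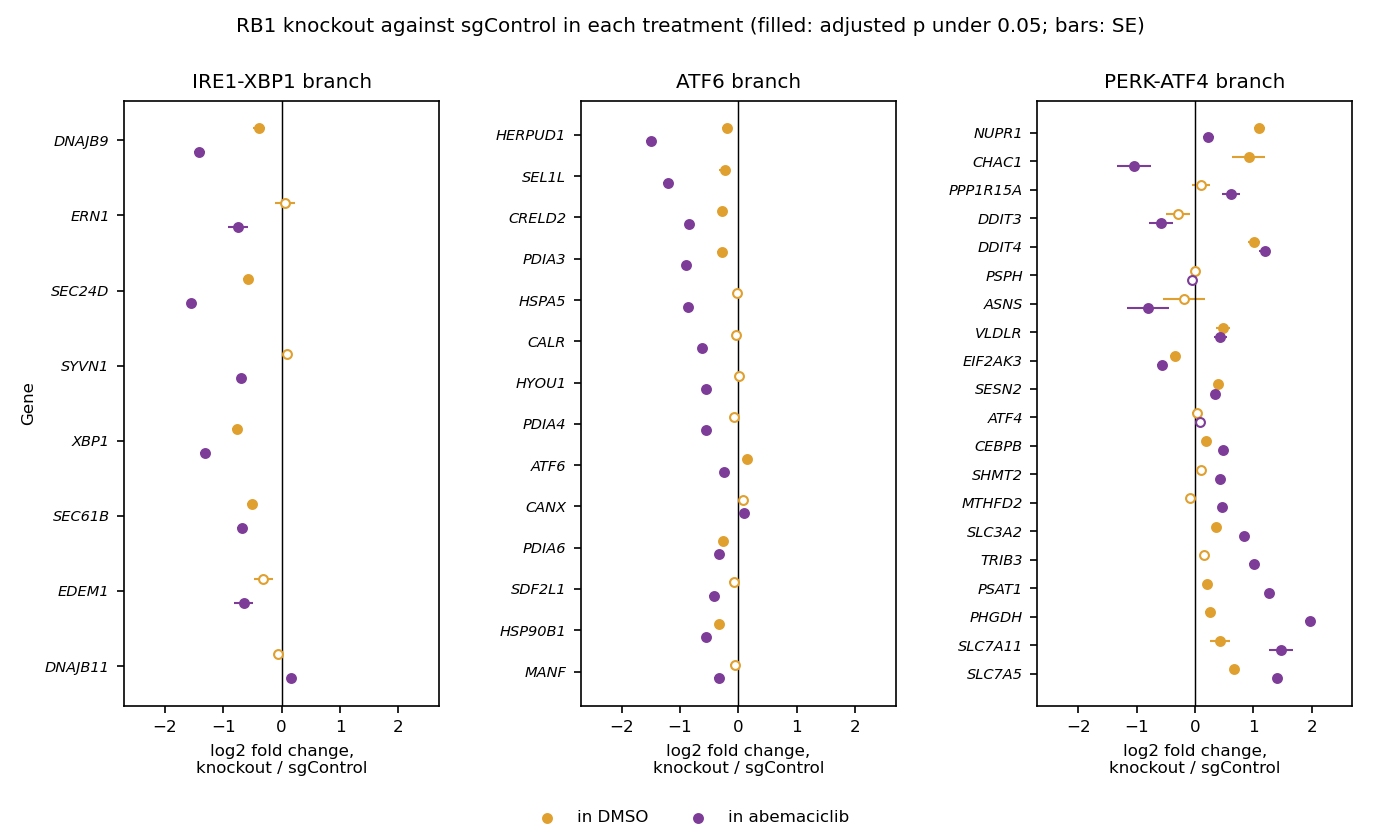
Log2 fold change of RB1 knockout over sgControl (horizontal axis, with SE bars) for each member in DMSO (orange) and in abemaciclib (purple), 3 libraries per group; filled points passed an adjusted p of 0.05. With abemaciclib most ER-branch members lie to the left, such as SEC24D at -1.55, and most PERK-ATF4 members to the right, such as PHGDH at 1.97.

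A further 90 genes of the same pathways, listed as ER folding and degradation factors, sensors and regulators, and ATF4 targets, were read out in the same fits. In sgControl cells 25 of 34 ER folding and degradation genes (73.5%) were higher with abemaciclib and 3 (8.82%) lower (median 0.30), where 24.1% and 23.9% of all tested genes were. In knockout cells 6 (17.6%) were higher and 9 (26.5%) lower (median -0.02), against 15% and 15.1% of all tested genes, so the share of higher genes was near the background. CRELD1 rose by 1.25 ± 0.18 (SE) on the log2 scale in sgControl cells and WFS1, the wolframin gene, by 1.18 ± 0.07 (SE), whereas DERL3, a derlin of the degradation pathway, changed by -2.34 ± 0.27 (SE). Of the ATF4 targets, with 31 of 33 tested, 8 were higher, a share near the background of 24.1%, and 16 lower against 23.9% in sgControl cells, the lower ones including GDF15 (-1.69 ± 0.11 SE) and the neutral amino acid transporter SLC1A4 (-1.23 ± 0.08 SE). In knockout cells, with 30 tested, 1 was higher and 16 were lower, against 15% and 15.1%. The interaction term of these targets, with 31 tested, was positive for 8 and negative for 13 (median -0.08), against 21% and 20.2%. In DMSO 8 were higher and 6 lower in the knockout than in sgControl cells, beside 16.2% and 15.2%. With abemaciclib 9 were higher and 15 lower (median -0.09), beside 27.5% and 26.4%. The lean of the 20 PERK-ATF4 members to positive terms was not shared by these targets.

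Some of these genes moved in opposite directions in the genotypes. ATF3, a stress-induced factor, was -0.90 ± 0.10 (SE) in sgControl cells and 0.85 ± 0.10 (SE) in the knockout, and STC2, a secreted glycoprotein, 0.87 ± 0.08 (SE) and -0.91 ± 0.09 (SE). CREB3L1, an ER-membrane factor cleaved like ATF6, was 1.00 ± 0.09 (SE) and -0.69 ± 0.10 (SE), and the interaction term was called for CREB3L1 (-1.69 ± 0.14 SE, adjusted p = 1.58e-33), ATF3 (1.75 ± 0.14 SE, adjusted p = 1.13e-35) and STC2 (-1.78 ± 0.12 SE, adjusted p = 5.39e-50). DELE1, which relays mitochondrial stress to the integrated stress response, rose in both genotypes (1.07 ± 0.06 SE and 0.39 ± 0.06 SE), as did PDIA5 (0.85 ± 0.08 SE and 0.36 ± 0.08 SE). CTH, the cystathionine lyase gene, fell in the knockout (-0.78 ± 0.19 SE) and was not called in sgControl cells (-0.12, adjusted p = 0.611). Among the 23 sensors and regulators, of which 22 were tested, 7 were higher and 10 lower in sgControl cells, against 24.1% and 23.9% of all tested genes, and 2 were higher and 14 lower in knockout cells, against 15% and 15.1%. The shares of higher genes were again not far from the background, whereas those of lower genes (43.5% and 60.9% of the 23) were above it.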

How the data were processed

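The deposited table held whole-number counts per gene symbol, which the authors made by trimming reads with BBDuk, aligning them to hg38 with STAR 2.7.5b and counting over GENCODE genes with featureCounts 2.0.1 (versions per the submitters' processing notes). The labels name a directional library kit and the study's general methods a 3′ kit; strand setting and treatment of multi-mapping reads were not given in the sources used here. Opposite-strand genes overlap 20 of the members and same-strand genes 13. All 60612 named rows of the 12 libraries entered 1 DESeq2 1.42.0 model (R 4.3.3) with group as the term and median-of-ratios factors, with independent filtering on; 44 rows named NA were left out and held 0% of counts. Wald tests were two-sided, p-values were adjusted by Benjamini-Hochberg over all tested genes, and calls used an adjusted p of 0.05. Intervals are 95% and cover the model's standard error. Alternatives were edgeR 4.0.16 quasi-likelihood, total-count and TMM factors, count filters, a replicate block, fits of the compared samples only and leaving out each library. Totals of 39907318 to 81636393 counts set the precision, and intervals for low genes are wide. Values per library are given for the sensors, the factors and HSPA5, for the 2 largest called changes in each direction per branch in both drug contrasts and the interaction (mean of 100 normalized counts or more), and for the 2 largest over all members in genotype contrasts. Other genes of the same pathways are named where they were the 3 largest in a direction in a drug contrast, except 1 that is not reported here; other members are named with their values as they fit the roles, and the values per library of EDEM1, CHAC1 and ASNS were added after they were seen. Replicates with the same number were compared by the correlation of their deviations from group means. The members, lists and motifs were chosen with earlier results of these data known. The 12 libraries are biological replicates per the series design.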

Additional observations from a re-analysis of the deposited data

Results flagged for a closer look

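The genotypes' responses to abemaciclib differed, by the interaction term of the DESeq2 model, in 29 of the 42 members. Of the members 26.2% were positive and 42.9% negative, against 21% and 20.2% of all tested genes. Values for the called members are log2, negative where the response was lower in the knockout. In the IRE1-XBP1 branch these were XBP1 (-0.55), ERN1 (-0.80), DNAJB9 (-1.02), DNAJB11 (0.22), SEC24D (-0.97) and SYVN1 (-0.80). In the ATF6 branch they were ATF6 (-0.38), HSPA5 (-0.84), HSP90B1 (-0.22), CALR (-0.60), PDIA3 (-0.61), PDIA4 (-0.49), HERPUD1 (-1.31), SDF2L1 (-0.35), CRELD2 (-0.58), HYOU1 (-0.57) and SEL1L (-0.97). In the PERK-ATF4 branch they were TRIB3 (0.86), CHAC1 (-1.97), PSAT1 (1.06), PHGDH (1.71), SHMT2 (0.32), MTHFD2 (0.54), SLC7A11 (1.05), SLC3A2 (0.48), SLC7A5 (0.74), CEBPB (0.30), PPP1R15A (0.51) and NUPR1 (-0.88). SEC24D, ATF6, HSPA5, CALR, PDIA3, PDIA4, HERPUD1, HYOU1 and CHAC1, 9 members in all, were called higher with the drug in one genotype (sgControl) and lower in the other, and PHGDH did the reverse. Over all tested genes 24.1% were higher in sgControl cells and 15.1% lower in the knockout. The share of all genes with both calls was not computed, so the 9 members cannot be weighed against it. For ATF6 neither the rise in sgControl cells nor the interaction was called with total-count factors. The knockout calls of PDIA3, CHAC1 and PHGDH were lost on leaving out any of 8, 5 and 4 of the 12 libraries, respectively.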

How the results depend on the processing

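Of the 10 counts of called members, 9 stayed within 1.5 times of the value given under every alternative run. The exception was the count higher in the knockout in DMSO, 12, which was 7 when only the compared samples were fitted and lay between 7 and 12 when single libraries were left out, with 7 reached without knockout DMSO replicate 3; the cause was not tested. Total-count scaling left no change of CANX in sgControl cells (-0.01, adjusted p = 0.9). Only between the abemaciclib groups did all same-numbered libraries deviate together (r = 0.15, 0.26 and 0.11). Between sgControl DMSO and knockout abemaciclib libraries r was 0.37, 0.26 and -0.06, and the sample titles name no pairing. The replicate block spanned all 4 groups. With it 2 of 210 member calls were lost, CANX and ASNS between the genotypes under abemaciclib. The 3 gained were SEL1L (-0.21, adjusted p = 0.0417) and DDIT3 (0.47, adjusted p = 0.0369) in knockout cells and MANF for the interaction (-0.28, adjusted p = 0.0267). In knockout cells same-numbered libraries did not deviate together (r = -0.02, -0.07 and 0.02), so the block is not a paired analysis there. Of 210 member calls, 14 were lost and 4 gained with total-count factors, and 1 more (CANX) was lost with a sign change at -0.01. With TMM factors 4 were lost and 2 gained, with edgeR 5 and 1, and with no filter 9 and 0. None changed with a minimum of 10 counts in 3 libraries. With only the compared samples 12 of 168 were lost and 5 gained. Leaving out single libraries lost 4 to 13 and gained 0 to 9. The 13 were lost without knockout DMSO replicate 3, and the 9 were gained, with 5 lost, without sgControl DMSO replicate 1. Counting DNAJB11, SYVN1 and EDEM1 in the ATF6 branch moved the IRE1-XBP1 median from -0.10 to -0.04 in knockout cells and from -0.72 to -1.32 between genotypes under abemaciclib. In knockout cells, leaving out single libraries also ended the calls of VLDLR in 5 and SLC3A2 in 3 of 12 fits. Without sgControl DMSO replicate 1, members higher and lower numbered 23 and 10 in sgControl cells, 7 and 21 for the knockout response, and 11 and 20 for the interaction. Low counts limit ASNS, CHAC1, DDIT3 and SLC7A11. Separate rows named as numbered copies of ASNS together had counts of up to 15.9% of the ASNS count in a library.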
